A study of Rattus norvegicus with 6 samples.

Results

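The genes examined here encode the proteins of the cytosolic ribosome, in RNA sequencing of cultured rat aortic cells from a hypertensive and a normotensive strain. Members were taken by symbol: every row named Rpl or Rps with a number, the stalk genes Rplp0, Rplp1 and Rplp2, the small subunit gene Rpsa, and 2 rows named only as loci, LOC100362027 and LOC306079, which are copies of Rpl30 and Rpl14. This gave 77 members among 16770 rows of the count table, 46 of the large subunit with the copies and 31 of the small subunit. Of these, 76 passed the filter on low counts and were tested among 12614 genes. The remaining member was Rps6, which had no count in 4 of the 6 libraries.

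The cells grew out of pieces of the proximal aorta of 3-month-old Wistar Kyoto (WKY) and spontaneously hypertensive (SHR) rats, the pieces having been placed with the luminal face on the plate. All cultures received ECM medium with FBS, P/S and endothelial cell growth supplement, and no other treatment is named. Each strain had 3 libraries, of which the labels place replicates 1 and 2 in batch 1 and replicate 3 in batch 2. The sources used here do not say what a batch was, or whether a library came from its own animal or culture. The p-values therefore reflect library-to-library spread alone, which may be technical.

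Each ribosome has a small subunit that reads the messenger RNA and a large subunit that joins the amino acids, and most of its proteins are present in equal amounts. In mammals the messenger RNAs of these proteins are known to start with a C followed by a run of pyrimidines, the terminal oligopyrimidine or TOP motif, through which mTOR and the RNA-binding protein LARP1 control their translation. Mammalian genomes carry many processed copies of these genes, and a sequencing read from a gene can match its copies too.

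Library totals lay between 18462032 and 19947286 estimated counts, with 14407 to 15011 genes above 0. Although the cells are labelled endothelial, the 10 endothelial markers measured summed to 18.7 to 37.6 CPM (counts scaled to library size with TMM factors), and Cdh5 and Tie1 were at or under 3 counts in every library. The 8 fibroblast markers summed to 4796, 8471 and 14465 CPM in WKY and to 13966, 11675 and 20612 CPM in SHR. The 5 proliferation markers summed to 466 to 648 CPM in batch 1 and to 55.7 and 69.2 CPM in batch 2, and the 7 smooth muscle markers to 696 to 798 CPM in batch 1 against 7470 and 1570 CPM in WKY and SHR of batch 2. The part of these levels in the results was not tested, and in such bulk samples fewer cells of a type and less RNA per cell cannot be told apart.

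Because the TOP motif lies at the start of the transcript, the windows below show the 15 bases before and the 15 bases from the annotated start of some members that carry the results. They come from the RefSeq promoter table of the GRCr8 assembly, whereas the build named for the counts is Rnor_6.0. Capitals mark the longest run of C and T that begins with C. Members not shown can have short runs: the longest was 2 bases in Rpl36 and 4 in Rpl3, both called between batches. The first line belongs to the copy of Rpl30, the next to the parent of the other pair, then follow members higher in batch 2, members lower in batch 2, and Rps6.
LOC100362027, chr10:37332846-37332875, minus strand: aaagcagttgctacaCCTTTCTCgctcccc
Rpl14, chr8:129163605-129163634, plus strand: gggcgggCCCTCTCCCTTCTCgctgagcgc
Rpl29, chr8:115947628-115947657, plus strand: gggCCTTTCTCTTTCTCTTCCggtcccagg
Rpl28, chr1:78083518-78083547, minus strand: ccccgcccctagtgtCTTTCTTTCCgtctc
Rps15, chr7:10068101-10068130, minus strand: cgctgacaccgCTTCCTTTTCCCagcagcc
Rpsa, chr8:128728864-128728893, plus strand: CCTTTCCgcgctaccctggaacgggtccgt
Rps23, chr2:23814502-23814531, plus strand: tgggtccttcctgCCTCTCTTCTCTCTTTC
Rps14, chr18:56498245-56498274, plus strand: cccttccgtCTCTCTCTTTCCggtggagga
Rps28, chr7:15311319-15311348, minus strand: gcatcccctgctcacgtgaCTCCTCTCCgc
Rps6, chr5:106420526-106420555, minus strand: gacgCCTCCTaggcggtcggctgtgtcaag
Of the 77 members 57 had a promoter in the table. A run of at least 5 pyrimidines that begins with C at the annotated start was present in 21 of them (36.8%), against 2.56% of the 27400 other promoters. A run of at least 8 anywhere within the window was present in 35 (61.4%), against 8.34% of the others. Only the strand of the gene was searched, and runs were counted whether or not they overlapped another. In LOC100362027 and Rpl28 the run begins at the annotated start, in Rpl29 and Rps23 it begins ahead of that base and runs across it, and in Rps28 it begins after it.

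The largest strain differences among the members were those of a gene and its copy that exchanged places. Rpl30 (gene identifier 64640) encodes a large subunit protein that in mammals is also known to bind the RNA element for selenocysteine incorporation. Its row held 1.41, 0.85 and 2.11 CPM in the WKY libraries and 321, 302 and 248 CPM in the SHR libraries. The copy LOC100362027, which RefSeq now names Rpl30l2 and annotates as protein-coding, had 269, 280 and 211 CPM in WKY and 1.16, 2.86 and 1.56 CPM in SHR. The strains did not overlap on either row, and each strain kept nearly all of its counts on a different one. Rpl30 had a log2 difference of 7.67 in favour of SHR (SE 0.39, adjusted p = 0.0155), and LOC100362027 fell by 7.08 (SE 0.38, adjusted p = 0.0155). They were the 2 members called at an adjusted p below 0.05 among the 76, where 0.254% of all genes tested were called (0.103% higher, 0.151% lower). Within batch 1 the differences were 8.09 and -7.09, and between the single libraries of batch 2 they were 6.87 and -7.07.

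The sum of Rpl30 and its copy differed far less between strains than either row. It came to 270, 281 and 213 CPM in WKY and to 322, 305 and 249 CPM in SHR, with means ± SD of 255 ± 36.8 and 292 ± 38.2 CPM over the 3 libraries. Over both batches together the values of the strains overlapped, while within each batch every SHR library lay above every WKY library. The difference was 0.20 on the log2 scale (SE 0.13, adjusted p = 0.564 in edgeR's test). The exact two-sided permutation test over libraries, which took no account of batch, gave p = 0.3, where 0.1 is the smallest value possible. Of the summed counts, 0.3% to 1.0% lay on the Rpl30 row in WKY and 99.1% to 99.6% in SHR. The edgeR call of Rpl30 was lost without WKY replicate 1, SHR replicate 1 or SHR replicate 2 (adjusted p up to 0.112), and that of the copy without SHR replicate 1 or 2 (up to 0.0991). The log2 difference itself stayed at 7.36 or more for Rpl30 and at -6.77 or below for the copy.

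**Figure D1:**
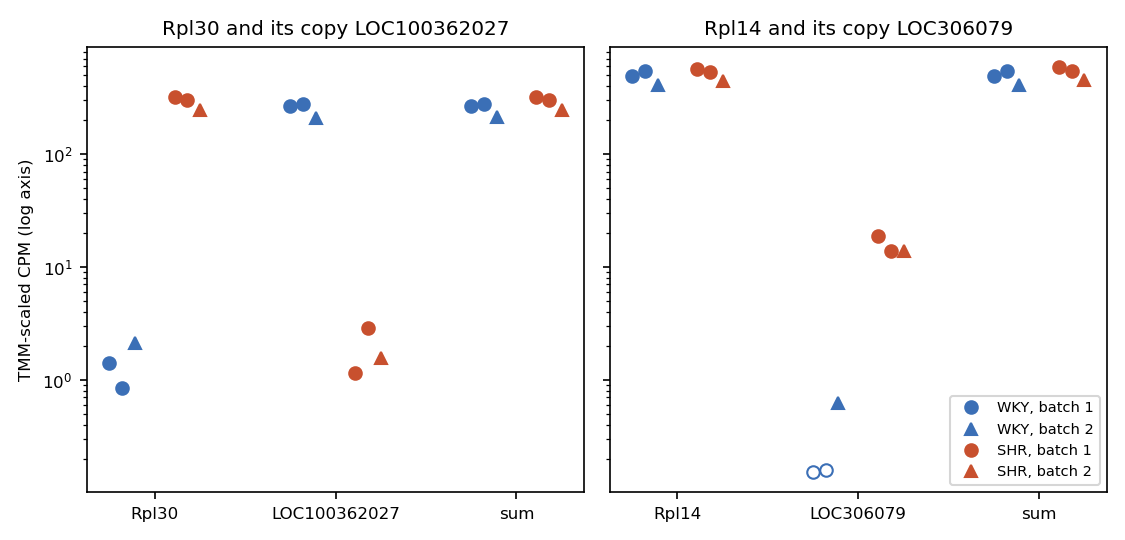
TMM-scaled CPM on a log axis of Rpl30 and Rpl14, of the copy of each, and of their sum, with 1 point per library (circles batch 1, triangles batch 2) and open circles for values at or under 3 counts, drawn at that floor. Rpl30 and LOC100362027 trade places between strains, LOC306079 lies at 13.9 to 18.7 CPM in SHR and under 1 CPM in WKY, and both sums overlap between strains.

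Rpl14 encodes another large subunit protein, and its copy LOC306079, now named Rpl14l1, is annotated as a transcribed pseudogene. The Rpl14 row (gene identifier 65043) had 498, 546 and 411 CPM in WKY and 572, 535 and 442 CPM in SHR, a difference of 0.09 on the log2 scale (SE 0.15, adjusted p = 0.821). The copy had 0, 3 and 9.96 estimated counts in WKY and 356, 274 and 267 in SHR. In CPM these were 0, 0.16 and 0.62 against 18.7, 14.0 and 13.9, so that the strains were far apart on the copy and overlapped on the parent. The copy's fitted difference of 6.13 (SE 0.89) did not pass edgeR's test after adjustment over all genes (adjusted p = 0.103), whereas the DESeq2 Wald test called it at 6.39 (SE 0.84, adjusted p = 1.02e-11). Summed, they gave 485 ± 68.6 CPM (SD, n = 3) for WKY against 532 ± 69.4 CPM (SD, n = 3) for SHR, with a difference of 0.13 (SE 0.15, adjusted p = 0.729). The exact permutation test of the sum, which also took no account of batch, gave p = 0.4. Within batch 1 the sums were 591 and 549 CPM in SHR against 498 and 547 CPM in WKY. In batch 2 they were 455 CPM in SHR against 411 CPM in WKY. In contrast to Rpl30, the parent kept 96.8% to 97.5% of the summed counts in SHR, and the copy added the rest.

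Apart from these pairs, no member passed edgeR's test between strains, but nearly all leaned toward SHR. Of the other 72 tested members 70 had a positive difference and 2 a negative one, and their median was 0.24 on the log2 scale, or 1.18-fold. The median over all genes tested was -0.02, and 47.4% of all genes were positive. The SE of single members lay between 0.13 and 0.25, and the lowest adjusted p was 0.212. With the pairs included, large subunit genes had a median of 0.27 and small subunit genes one of 0.22. Among all 76 tested members, every SHR library lay above every WKY library in 17, Rpl30 and LOC306079 included. This held for 4.51% of all genes. The reverse held for 1 member, LOC100362027, and 5.3% of all genes. All members were measured in the same libraries and can shift together with a library. The counts of members are therefore not independent observations of a strain difference, and the members were not tested as a set.

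The members furthest toward SHR were spread over both subunits. Rpl38, a large subunit protein known in mice for its part in the translation of Hox messages, had 188, 209 and 135 CPM in WKY and 310, 274 and 223 CPM in SHR. Every SHR library was above every WKY library, and the log2 difference was 0.61 (SE 0.14, unadjusted p = 0.0055, adjusted p = 0.212). Rps10, a small subunit protein near the path of the messenger RNA, had 326, 403 and 330 CPM in WKY and 480, 493 and 534 CPM in SHR, also with no overlap (0.51, SE 0.16, adjusted p = 0.303). Rps15, which sits in the head of the small subunit, had 427, 595 and 953 CPM in WKY and 692, 703 and 1456 CPM in SHR, with overlap between strains and the batch 2 library highest in each (0.50, adjusted p = 0.364). Rpl37a, a large subunit protein with a zinc-binding fold, differed by 0.46 (adjusted p = 0.266). The DESeq2 Wald test, which called 5.14% of all genes (2.68% higher, 2.46% lower), called 6 members higher and 1 lower: Rpl30, LOC306079, Rpl38, Rps10, Rpl37a and Rpl7a were higher, at 0.37 to 7.69, and LOC100362027 was lower. An unadjusted p below 0.05 in edgeR was reached by 6 members with a positive and 1 with a negative difference, and by 769 and 906 of the 12614 genes.

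At the other end stood the row named Rps19 (gene identifier 108348115). RefSeq's current Rps19, the ribosomal protein gene most often mutated in human Diamond-Blackfan anaemia, is the row listed as Rps19l2 (gene identifier 29287), which is no member and differed by 0.30 (SE 0.16, adjusted p = 0.501 in edgeR's test). The member row had 65.4, 61.6 and 31.9 CPM in WKY and 52.0, 55.7 and 12.6 CPM in SHR, a difference of -0.59 (SE 0.25, adjusted p = 0.389). The values of batch 2 were lowest in both strains, and the strains overlapped. Summed with its copies, described further on, the family differed by 0.23 in the other direction (SE 0.16, adjusted p = 0.583). Rps26, another gene mutated in that disease, differed by -0.14, and Rpl3, Rps27a and Rpl11 differed by 0.01, 0.04 and 0.05. Rpl3 lies close to the site of peptide bond formation, Rps27a is made as a fusion to ubiquitin, and Rpl11 is known for its binding to Mdm2. The stalk, through which translation factors reach the ribosome, leaned toward SHR in all of its genes, with 0.20 for Rplp0, 0.22 for Rplp1 and 0.28 for Rplp2, none of them called (adjusted p 0.473 to 0.692). Rpsa, also known as the laminin receptor precursor, differed by 0.35 (adjusted p = 0.517).

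**Figure D2:**
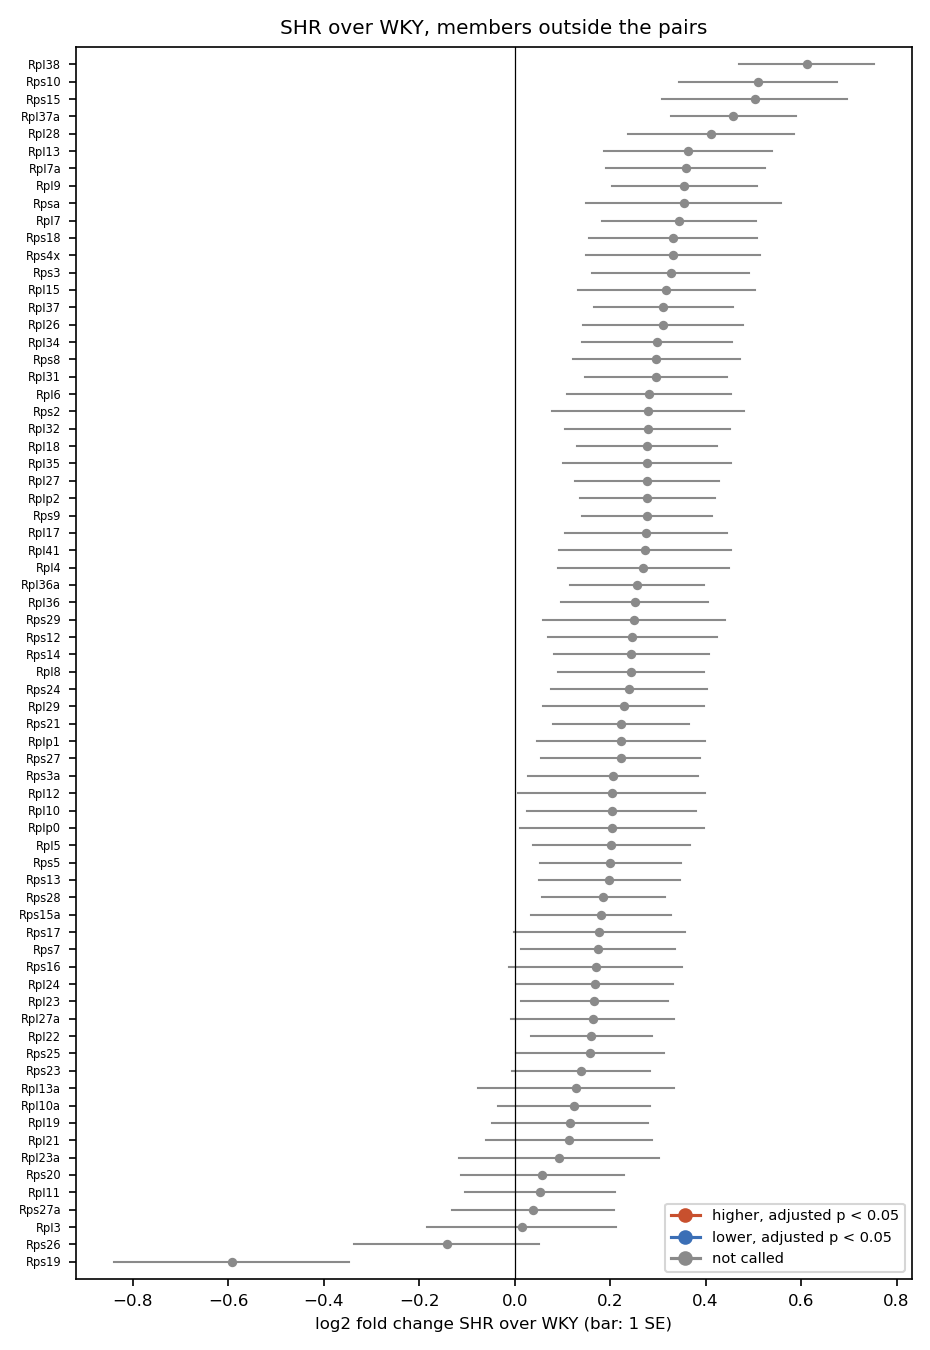
Log2 fold change of SHR over WKY with its SE for 70 of the 72 tested members outside the Rpl30 and Rpl14 pairs, in order of size. The values run from -0.59 (Rps19) to 0.61 (Rpl38), all but Rps19 and Rps26 lie right of 0, and none is called.

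The lean was not even over the libraries. Within batch 1 the median member differed by 0.17 and all genes by 0.01, and between the 2 libraries of batch 2 the median member differed by 0.41 and all genes by -0.04. WKY replicate 1 was the lowest of the batch 1 libraries in 64 members. SHR replicate 2 was above WKY replicate 2 in 50 members, and SHR replicate 3 above WKY replicate 3 in 73. Leaving out 1 library moved the median to between 0.18 and 0.31. The number of members with a positive difference was 73 of 76 with each of the library scalings tried.

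As a share of all counts, the members held 5.23%, 5.59% and 4.47% in the WKY libraries and 6.06%, 6.05% and 6.56% in the SHR libraries. Every SHR library held more than every WKY library, and the mean difference was 1.13 percentage points. Without WKY replicate 3, the lowest library, it was 0.81 points. The large subunit genes held 2.74% to 3.34% in WKY and 3.58% to 3.96% in SHR, and the small subunit genes 1.73% to 2.25% and 2.43% to 2.60%. Beside this the summed fibroblast markers also were higher in SHR, with the exception that WKY replicate 3 exceeded SHR replicates 1 and 2, and all 8 fibroblast markers had a positive strain difference, none called by edgeR and 5 called by DESeq2. All 5 proliferation markers were also positive, with a median of 0.42 on the log2 scale, and all 6 tested smooth muscle markers were negative, with a median of -1.11, none of either list called by edgeR and 1 of each by DESeq2. All 5 tested mesothelial and epithelial markers were positive (median 1.49) and all 3 tested pericyte markers negative (median -1.56), none called by edgeR or DESeq2. In batch 2 the mesothelial and epithelial markers summed to 83.6 CPM in WKY and 1197 CPM in SHR. The pericyte markers summed to 493 and 53.6 CPM there. The part of these markers in the members' lean was not tested.

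**Figure D3:**
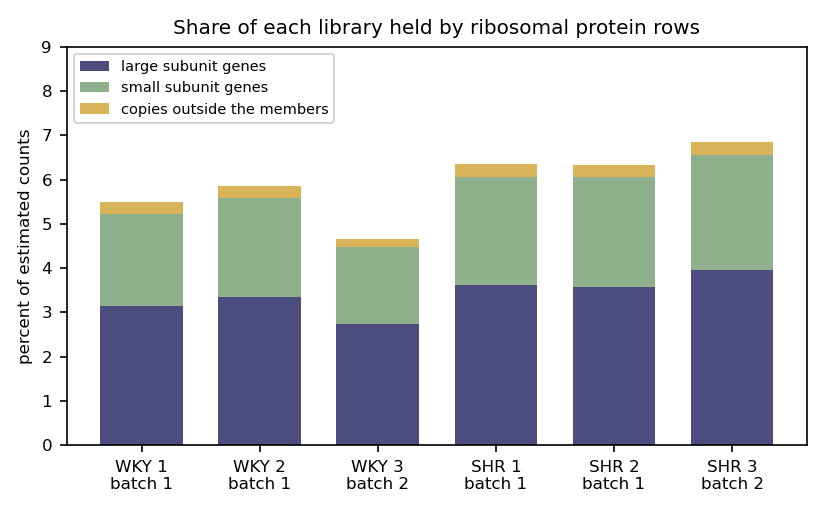
Share of the estimated counts of each library, in percent, held by large subunit members, small subunit members and the copies outside the members. The members alone hold 4.47% to 5.59% in WKY and 6.05% to 6.56% in SHR, and the copies add 0.18% to 0.29%.

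More members were called between batches than between strains, and in both directions. Of the 76 tested members 8 were higher and 13 lower in batch 2. The share of all genes called was 43.5% (21.0% higher, 22.5% lower), above the members' own share, and the members' median of -0.10 on the log2 scale lay near the median of all genes of -0.00. For all 21 called members the direction was the same within each strain. With 1 library left out, 12 members were called without WKY replicate 2 and 12 without SHR replicate 1. The shares of all genes called with 1 library left out are not given here, so the fall from 21 is not read as particular to the members. The calls of 10 of the 21 were made in all 6 such fits, with Rpl29, Rpl28 and Rpl36 among the higher ones and Rpl37a, Rps19, Rps23, Rps14, Rps9 and Rps28 among the lower, and the other 11 were lost in 1 to 6 of them (adjusted p up to 0.179). DESeq2 called 17 members higher and 24 lower, where it called 46.7% of all genes (23.7% higher, 23.0% lower). Scaling by total counts alone gave 5 higher and 24 lower and moved the median of all genes to -0.18, against which the members' median was -0.28.

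The members higher in batch 2 were 5 of the 46 tested of the large subunit and 3 of the 30 tested of the small. Rpl29, a large subunit protein also known as a heparin-binding protein, had 479, 575, 638 and 592 CPM in the batch 1 libraries and 1419 and 1673 CPM in batch 2. This was the largest rise among the tested members, 1.44 on the log2 scale (SE 0.17, adjusted p = 0.00279) or 2.71-fold. Rpl28 rose from 507 ± 74.2 CPM (SD, n = 4) to 994 and 1500 CPM in WKY and SHR, by 1.28 (adjusted p = 0.00397). Rpl36 (0.91) and Rpl13 (0.64) were also among the large subunit genes that rose. From the small subunit, Rps15 rose by 0.98, Rpsa by 0.82 and Rps25, known for its part in internal initiation of translation, by 0.53. In these genes SHR replicate 3 was the highest library of all.

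The members lower in batch 2 were 8 of the 30 of the small subunit and 5 of the 46 of the large. DESeq2 called 12 of the 31 small subunit members lower and 12 of the 46 of the large subunit, where it called 23.0% of all genes lower. The difference between subunits was not tested. Rpl37a fell most: it had 191, 215, 293 and 267 CPM in batch 1 and 43.8 and 59.8 CPM in batch 2, a change of -2.22 (SE 0.16, adjusted p = 0.00105) or 4.66-fold lower. The identifier of this row (100361520) had no match in the RefSeq tables used for current names. Rps23, a protein of the decoding centre, fell from 659 ± 40.7 CPM (SD, n = 4) to 239 and 267 CPM, by 1.38 (adjusted p = 0.00269). Rps14, known for its loss in the 5q- syndrome of humans, fell from 559 ± 51.3 CPM to 184 and 252 CPM, by 1.37 (adjusted p = 0.00356). Rps9, which lies at the entry of the messenger RNA, fell by 1.15 and Rps28 by 0.86, and among the other small subunit genes that fell were Rps19 (-1.51), Rps3a (-0.73) and Rps21 (-0.59). From the large subunit, Rpl3 fell by 0.70, Rpl9 by 0.63 and Rpl10a, the protein of the other stalk of the large subunit, by 0.55. In each of these genes both batch 2 libraries lay below all 4 batch 1 libraries.

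The stalk genes did not move alike. Rplp0 had 2292, 2649, 2765 and 2775 CPM in batch 1 and 3107 and 3772 CPM in batch 2, a difference of 0.39 that did not pass the test (adjusted p = 0.169). Its partners, which bind to it in pairs, lay on the other side. Rplp1 had 1148 to 1559 CPM in batch 1 and 857 and 965 CPM in batch 2, a difference of -0.55 (adjusted p = 0.0621). Rplp2 fell from 431 ± 48.2 CPM (SD, n = 4) to 242 and 303 CPM, by 0.67 (SE 0.15, adjusted p = 0.0185). Its call was lost without WKY replicate 2, WKY replicate 3 or SHR replicate 1 (adjusted p up to 0.066). Over all members, both batch 2 libraries were above all batch 1 libraries in 14 (27.2% of all genes) and below them in 23 (30.4% of all genes).

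**Figure D4:**
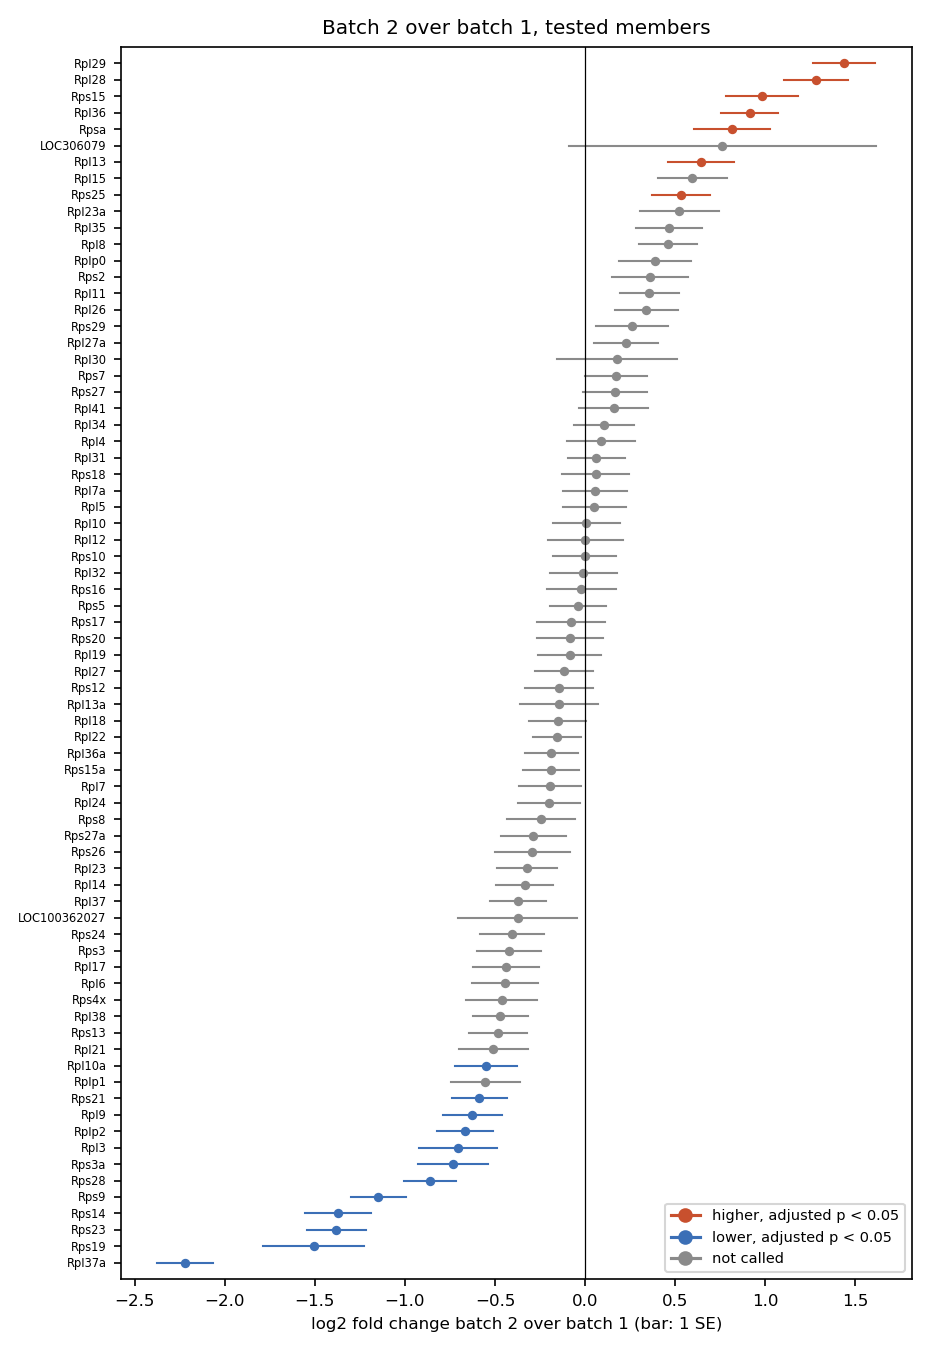
Log2 fold change of batch 2 over batch 1 with its SE for 74 of the 76 tested members, in order of size, coloured by call at an adjusted p of 0.05. The values run from -2.22 (Rpl37a) to 1.44 (Rpl29), with 7 of the plotted members called higher and 12 lower, and LOC306079, near 0 in WKY, has the widest error.

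Rps6, the small subunit protein that S6 kinase phosphorylates when mTOR is active, was the extreme case. It had 0 estimated counts in each of the 4 batch 1 libraries and 10565 and 20879 in WKY and SHR of batch 2, or 572 and 1047 CPM of the unscaled libraries. Against the 3 counts that a count of 0 allows per library, the lower of the batch 2 libraries was at least 3533-fold higher. This fold is one of the deposited estimated counts, and whether reads were assigned to genes alike in both batches was not tested. The filter by strain had removed it, and in a fit with no filter its batch difference had an adjusted p of 0.000894 in edgeR and 0.00023 in DESeq2. Only 4 genes were at 0 in all batch 1 libraries with at least 5 CPM in both batch 2 libraries, namely Rps6, Brms1, Ebna1bp2 and Myh9l1, and 3 showed the reverse, namely LOC100360449, LOC100911453 and Pomp. LOC100360449 is named after a member as well: RefSeq now lists it as Rpl9-ps31, a pseudogene of Rpl9. In the authors' deposited table of log2 values, in which the means of the batches are equal in every gene, Rps6 has 8.31 to 8.80 in every library.

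Beside the members the count table held 54 further rows that RefSeq names as cytosolic ribosomal protein genes or their copies, all called copies here. Of these, 30 were annotated as pseudogenes and 48 named after a member. Of the members 34 had at least 1 such copy, the pairs of Rpl30 and Rpl14 included. Values more than 0.001 from a whole number made up 39.4% of the members' values above 0 against 10.3% over all rows. Rps9 and the row Rps9l1 held identical estimated counts in every library, from 2089.5 to 7183. RefSeq's current Rps9 is the row Rps9l1 (gene identifier 103689992), and the member row (gene identifier 81772) had no match there. For the strain comparison, none of the 32 tested copies outside the members was called (unadjusted p below 0.05 in 1, none by DESeq2), and their median was 0.22. In a table with each member summed with its copies none of the 74 tested sums was called, against 0.23% of all rows, so that both edgeR calls of single rows ended. All 74 sums were positive, with a median of 0.23, and those of Rpl30, Rps19 and Rps26 differed by 0.20, 0.23 and 0.04 where the rows alone differed by 7.67, -0.59 and -0.14.

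For the batch comparison the copies changed the picture in single families. Summed with its copies, Rps26 went from an uncalled -0.29 to a rise of 1.49 (adjusted p = 0.00324). The member row had 101, 111, 126 and 95.7 CPM in batch 1 and 106 and 72.5 CPM in batch 2, while LOC100360508, now Rps26-ps11, had 275, 284, 231 and 240 CPM and then 773 and 1116 CPM. Rps19 went the other way: its row fell, and its sum with the copies differed by -0.02. The row Rps19l2, RefSeq's current Rps19, had 375 to 467 CPM in batch 1 and 371 and 544 CPM in batch 2, and the member row held 10.0% to 14.8% of the summed counts in batch 1 and 2.3% and 7.9% in batch 2. Rpl8, a large subunit protein near the peptidyl transferase centre, changed from 0.46 to -0.19, neither called, while its pseudogene row LOC100360117 had 340 to 385 CPM in batch 1 and 62.3 and 51.8 CPM in batch 2. Rps14 fell by 1.37 alone and by 0.77 with its copy.

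With the sums in place of the single rows, 9 families were higher and 14 lower in batch 2, where 43.5% of all rows were called (21.1% higher, 22.5% lower). Of the 21 members called alone 20 were also called as sums. Only 8 of the 21 had a copy, and for the others the sum is the row itself, so their agreement was fixed in advance. Among the 8, the rows of Rpl29, Rpl10a and Rpl37a held over 99% of their sums, and Rps9 was summed with a row of identical counts. Rpl38, Rps13 and Rps26 were called as sums only. The sums of the 2 pairs behaved alike: that of Rpl30 with LOC100362027 differed by -0.35 between batches (SE 0.14, adjusted p = 0.0902) and that of Rpl14 with LOC306079 by -0.33 (SE 0.16, adjusted p = 0.136), and both were lower in batch 2 in each strain.

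**Figure D5:**
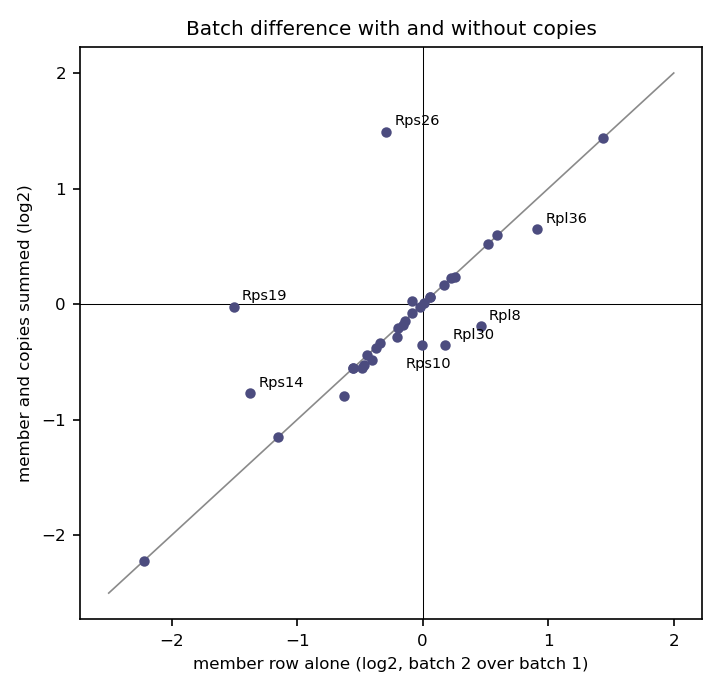
Log2 fold change of batch 2 over batch 1 for the member row alone (horizontal axis) and for the member summed with its copies (vertical axis), 1 point per family, with the line of equality. Most families lie on the line, and Rps26 (-0.29 against 1.49) and Rps19 (-1.51 against -0.02) lie furthest from it.

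Whether the strain difference of a member depended on the batch could be tested with 2 residual degrees of freedom only. No gene of the 12614 was called by edgeR (0.0%), none of the members by DESeq2, and 2 members had an unadjusted p below 0.05, both negative, against 686 positive and 911 negative among all genes. They were Rps19, whose strain difference was -0.24 in batch 1 and -1.34 in batch 2 (adjusted p = 0.228), and Rpl30 (8.09 and 6.87, adjusted p = 0.362). Summed with its copies, Rps19 had strain differences of 0.12 in batch 1 and 0.46 in batch 2, opposite in sign to its row alone. The sum of Rpl30 with its copy had 0.19 and 0.23. Median interaction over the members was 0.23, with 68 of 76 positive, and over all genes -0.04. The 68 share the same libraries, with 1 library of each strain in batch 2, and are not independent observations.

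Members with a long pyrimidine run near their annotated start and those without it had similar median differences, and the 2 sets were not tested against each other. The 35 tested members with a run of at least 8 had a median strain difference of 0.22 and a median batch difference of -0.09, with 3 called higher and 6 lower in batch 2. The 21 without such a run had 0.25 and -0.19, with 3 called in each direction. Of all genes 21.0% were called higher and 22.5% lower. The runs depend on the annotated start, so the split does not show which messages carry the TOP motif. Rpl29 and Rps23, shown above with long runs, moved in opposite directions between batches.

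The other genes of ribosome production did not share the members' lean toward SHR, and most fell in batch 2. No gene of these lists was called between strains by edgeR or DESeq2. Among 37 ribosome biogenesis factors the median strain difference was -0.04, and Nob1, the nuclease that finishes the small subunit RNA, came closest to a call, with a difference of 0.58 (adjusted p = 0.302 in edgeR's test). Between batches 22 of them were lower and 2 higher, with a median of -1.07, where 22.5% of all genes were called lower and 21.0% higher. Gar1 and Nhp2, proteins of the particles that modify ribosomal RNA, fell by 2.82 and 2.17, and Polr1c, a subunit of the polymerases that make ribosomal and other small RNAs, by 1.48. The 75 mitochondrial ribosomal protein genes, which serve the separate ribosome of that organelle, had a median of -0.04 between strains and of -0.59 between batches (4 higher, 38 lower). Mrpl33, Mrpl50 and Mrps23 fell by 1.82, 1.79 and 1.71. The proliferation markers given above were also lower in batch 2, all 5 of them called, and their part in these falls was not tested.

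Genes closer to the members in their control or sequence were mixed. Between strains, 7 of the tested paralogues and fusion genes of ribosomal proteins were positive and 2 negative, with a median of 0.20. The regulators of TOP translation had 4 positive and 10 negative (median -0.08). The chaperones of single ribosomal proteins had 4 positive and 2 negative (median 0.02). Of 18 translation factors and other genes known for TOP messages, 16 had a positive strain difference, with a median of 0.14, and between batches 4 were higher and 3 lower, where 21.0% of all genes were called higher and 22.5% lower. Eif3f, a subunit of an initiation factor, rose by 1.06, and Hnrnpa1, a splicing factor, and Eef1b2, an elongation factor subunit, fell by 1.58 and 1.02. Of 14 regulators of TOP translation 3 were higher and 1 lower in batch 2: Tsc2, an inhibitor of mTOR, rose by 1.15 and the S6 kinase gene Rps6kb2 by 0.84, and Rheb, an activator of mTOR, fell by 0.76. Rps6kb2 was not called without WKY replicate 3 (adjusted p = 0.0905). All 6 chaperones of single ribosomal proteins had lower values in batch 2 and 5 were called, among them Heatr3 (-2.21), Bccip (-2.09) and Grwd1 (-1.63). Of 9 tested paralogues and fusion genes of ribosomal proteins 2 were higher and 5 lower, with Rpl22l1 at -2.87, Rps27l at -2.55 and Rpl7l1 at -1.11, whereas Rpl22 and Rpl7, the members from which 2 of them take their names, differed by -0.16 and -0.20 and were not called.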

How the data were processed

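The authors deposited estimated counts per gene for 6 libraries (3 WKY, 3 SHR), not normalized, and a table of log2 values. The submitters' processing notes list the Rnor_6.0 build and the tools RSEM 1.2.28, DESeq2 1.42.1 and Bowtie2 2.4.4 but assign no step to any. No source used here says how strand and near-identical copies were counted, so a member with a copy is uncertain on its own row. In the authors' deposited log2 table the batch means are equal in every gene (largest difference 7.5e-09). That table was used only for the log2 values of Rps6.

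The estimated counts were rounded, genes were kept with filterByExpr by strain, and libraries were scaled by TMM factors (0.87 to 1.07). SHR was compared with WKY, and batch 2 with batch 1, by the two-sided quasi-likelihood F-test of edgeR 4.0.16 in R 4.3.3 (robust dispersion, terms batch and strain, 3 residual degrees of freedom), with Benjamini-Hochberg adjustment over all 12614 genes and calls at an adjusted p below 0.05. The SE given for edgeR is the absolute log2 difference divided by the square root of the F statistic, so it is approximate for rows near 0 in 1 strain. The SE given for DESeq2 is the one it reports. Sums of a member with its copies were tested in the same fit on a table with those rows replaced. The exact permutation test, which took no account of batch, was added for the sums of the 2 pairs. A floor of 3 counts corresponded to 0.15 to 0.19 CPM and covers counting error only. Levels are not compared between genes, because lengths were not used here. DESeq2 1.42.0 and other scalings, filters, terms and libraries left out were tried as alternatives, and the code was tested on simulated data.

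Replicate numbers are shared by the strains in the labels. The deviations of same-numbered libraries from their strain's mean correlated at 0.30, 0.40 and 0.66 across genes, and the number 3 is the library of batch 2 in each strain. Within batch 1 alone the correlation was -0.20.

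RefSeq tables of the GRCr8 assembly gave current names and start sequences. By identifier 74 of 77 members matched, and the rows named Rpl37a, Rps9 and Rps19 did not. A match did not always keep the name: RefSeq now names the row Rpl37 (gene identifier 81770) Rpl37l1. The members, the lists and the tests were chosen with earlier results of these data known. Genes named are the 2 pairs, members called between strains, the 6 members with the largest and the 6 with the smallest log2 fold change in each comparison, the stalk genes and Rpsa, the 3 members with the smallest interaction p, and 3 genes per list and comparison by p. Rps6, the copies, the members that DESeq2 called, other members called between batches, and Rpl22 and Rpl7 were named after their values were seen. The values of 2 members are counted but not reported here by name or drawn.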

Additional observations from a re-analysis of the deposited data

How the results depend on the processing

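The strain median of the members (0.24) lay between 0.17 and 0.31 under the alternatives run and was 0.41 between the single libraries of batch 2, and the strain differences of both sums kept their sign and stayed uncalled. The number of members called between strains (2) was 7 with DESeq2 and 0 to 2 with 1 library left out. With the replicate block in place of the batch term it was 2, with a median of 0.24, and the block changed no call of a member. The number called between batches (21) was 41 with DESeq2, 12 within WKY, 13 within SHR and 12 to 14 with 1 library left out. The batch median (-0.10) was -0.28 with total counts alone, -0.20 within WKY and -0.20 to -0.041 with 1 library left out. The batch difference of the Rpl30 sum was called with total counts alone (-0.53) and with DESeq2 (-0.33), and that of the Rpl14 sum likewise (-0.51 and -0.31). The share difference lay between 0.81 and 1.37 percentage points with 1 library left out, and was 1.04 without the 10 most abundant genes. Among single genes, signs turned only in uncalled differences: between strains for Rps26 (0.059 within batch 1, -0.30 to 0.064 with 1 library left out), Rpl3 (-0.016 with no batch term, -0.091 within batch 1, -0.087 to 0.15), Rps27a (-0.078 within batch 1, -0.074 to 0.12), Grwd1 (-0.060 to 0.40), Heatr3 (-0.27 to 0.030) and Mlst8 (0.016 within batch 1, -0.45 to 0.021), and between batches for Rpl30 (-0.33 within SHR, -0.34 to 0.90) and LOC306079 (-0.23 within SHR, -0.24 to 2.90). The cause of these changes was not tested. Of the alternatives for single named genes 919 kept direction and side of the threshold, 21 lost a call, 9 gained one and 22 changed sign. With 3 libraries a strain, no single member outside the pairs passed edgeR's test between strains. Levels per coding length were not run.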
